A study of Mus musculus with 2 samples.

Results

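The genes described here encode the spliceosome and the proteins that steer it. They are the genes of the mouse array whose symbol follows one of the splicing gene families: SR proteins and the Tra2 pair, SRRM proteins, CLK kinases, hnRNPs, the PTB, CELF and MBNL regulators, SF3 and U2AF factors, snRNP proteins, PRPF proteins and numbered RBM proteins. This gave 123 of the 18193 genes that the array names by probe sets with 1 symbol, read by 347 probe sets. The RNA came from washed C57BL/6 platelets. Control mice have loxP sites on both sides of Smad4 (Smad4 f/f), and the other group (Smad4 −/−) had the same gene removed by a Cre recombinase that the platelet factor 4 promoter drives in megakaryocytes. The labels call the controls wild type, do not say whether they carry Cre, and state that the loss of Smad4 protein in platelets was checked by Western blot. Each genotype has 6 mice and 1 array, so there are no replicates, and every difference below is between 2 arrays with no test. Whether the mice were pooled, and their age and sex, are not given in the sources used here.

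A spliceosome assembles anew on each intron. The U1 particle marks the 5′ splice site, U2AF and the U2 particle with its SF3 proteins mark the branch point and the 3′ end of the intron, and the tri-snRNP of U4, U6 and U5 joins before the cut is made. SR proteins, which CLK kinases phosphorylate, mostly favour the use of nearby sites, whereas hnRNPs often compete with them, and MBNL, CELF and PTB proteins switch exons in a tissue-specific way. Platelets have no nucleus and inherit their mRNA from the megakaryocyte, yet they are known to carry spliceosome proteins and to splice some retained pre-mRNAs, with Clk1 as a regulator of that step. Smad4 is the shared DNA-binding partner of the receptor-regulated SMADs of TGF-beta and BMP signalling. Its protein binds the SMAD box CAGAC, its palindromic form GTCTAGAC and GC-rich sites such as GGCGCC.

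The 250 bases before the annotated start of Mbnl3, Rbm45, Snrnp27 and Srsf2 are shown: the first 3 are those of the 5 genes past 2-fold that matched the promoter table, with Clk1 and Snrnp40 named only, and Srsf2 came close to 2-fold at a bright signal. The sequences are RefSeq's on GRCm38.p6, written 5′ to 3′ toward the start site, and capitals mark CAGAC or GGCGCC on either strand.
Mbnl3 (chrX:51205991-51206240, - strand): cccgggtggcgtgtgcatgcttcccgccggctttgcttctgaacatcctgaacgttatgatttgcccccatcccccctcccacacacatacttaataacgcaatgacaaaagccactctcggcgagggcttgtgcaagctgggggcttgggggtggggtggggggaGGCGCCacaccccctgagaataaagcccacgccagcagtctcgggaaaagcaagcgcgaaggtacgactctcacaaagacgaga
Rbm45 (chr2:76369734-76369983, + strand): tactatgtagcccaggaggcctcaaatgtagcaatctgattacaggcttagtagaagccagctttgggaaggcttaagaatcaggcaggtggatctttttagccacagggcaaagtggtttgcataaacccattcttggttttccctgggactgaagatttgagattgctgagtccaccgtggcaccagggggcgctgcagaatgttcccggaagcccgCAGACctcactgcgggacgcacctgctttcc
Snrnp27 (chr6:86684492-86684741, - strand): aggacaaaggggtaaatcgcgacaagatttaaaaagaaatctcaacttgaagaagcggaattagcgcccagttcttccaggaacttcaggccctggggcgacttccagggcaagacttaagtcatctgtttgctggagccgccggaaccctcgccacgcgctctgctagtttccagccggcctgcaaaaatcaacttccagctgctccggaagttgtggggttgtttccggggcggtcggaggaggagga
Srsf2 (chr11:116853095-116853344, - strand): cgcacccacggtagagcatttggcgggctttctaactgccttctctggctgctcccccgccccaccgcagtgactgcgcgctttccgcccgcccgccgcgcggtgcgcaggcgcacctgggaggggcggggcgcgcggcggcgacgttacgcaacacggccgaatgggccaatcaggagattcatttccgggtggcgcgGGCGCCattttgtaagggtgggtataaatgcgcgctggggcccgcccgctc
Mbnl3 and Srsf2 each held 1 copy of GGCGCC, which began 84 and 51 bases before the start site. Rbm45 held 1 copy of CAGAC, which began 31 bases before it, and the Snrnp27 window held neither. None of these 4 windows held GTCTAGAC. CAGAC, read on both strands, stood in 42.2% of the 32851 windows of this length in the table and in 33.1% of the 148 windows of the 107 splicing genes that matched. The palindrome GGCGCC stood in 9.59% of all windows and in 17.6% of those of splicing genes, and GTCTAGAC in 0.167% and 0.676%. A match of letters is not a binding site, and no binding was measured.

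Signals are given as linear values of the authors' log2 scale. A signal counts as measured at or above a floor of 145, the 60th percentile of the array, and ratios are Smad4 −/− over Smad4 f/f after values below the floor are raised to it. A gene takes the value of its strongest probe set, with those of the suffix _x_at used only in want of another. With 1 side below the floor, a fold is a lower bound and is written as at least that fold. Signals of different probe sets do not rank transcripts, so only the 2 arrays are compared. Of the 123 splicing genes, 108 (87.8%) were measured, against 61.0% of all genes, and 241 of their 347 probe sets reached the floor. Of the 15 left, Hnrnpa1, Rbm34 and Rbm15b were measured by a weaker probe set or one of the suffix _x_at, and 12 by none: Srsf12, Srrm4, Celf4, Celf6, Snrpn, Prpf31, Prpf40b, Rbm12, Rbm44, Rbm46, Rbm47 and Rbm48. In a bulk sample, less RNA per cell and fewer cells of a kind cannot be told apart.

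Platelet and megakaryocyte markers were compared between the arrays, which cannot by itself check what cells the samples hold. All 12 platelet and megakaryocyte markers read, Pf4, Gp9 and Itga2b among them, stayed within 2-fold, and their signals summed to 1231250 in Smad4 f/f against 1301620 in Smad4 −/−. Smad4 itself read 949 and 894, with all 3 probe sets between −0.13 and −0.09 on the log2 ratio scale; whether they lie in the deleted part was not analysed here, so they do not check the genotype. Other cells' markers were not equal on the arrays. Among erythroid markers, 6 of the 14 that were measured passed 2-fold upward in Smad4 −/− and 0 downward, and the sum over the 19 listed was 15419 against 33890. Fech alone made 4551 and 13904 of that sum. Of the 14, 9 were higher and 5 lower. The globins Hba-a2 (1014 against 781) and Hbb-b2 (517 against 263) were among the lower ones, although the other probe set of Hbb-b2 was higher (0.91). The 15 listed T and NK cell markers summed to 7687 and 16705, of which Cd28 alone made 4685 and 12825. Of the 8 measured, 7 were higher and Cd3d was lower (356 against 181), while 7, with Cd3e, Cd3g, Cd4 and Cd5 among them, lay below the floor on both arrays. The sums for B cells were 7341 and 8730 (2 of 10 measured markers at least 2-fold higher), for monocytes and macrophages 141254 and 133226 (1 of 8), for neutrophils 6453 and 8192 (0 of 7) and for endothelium 27300 and 37509 (1 of 9), with 0 markers of these lists at least 2-fold lower. Single genes made most of 2 of these sums: Lyz2 139723 and 131259 for monocytes and macrophages, and Esam 22458 and 29173 for endothelium. For Gapdh, the control probe sets at the 3′ end read 1.86 times those at the 5′ end in Smad4 f/f and 2.61 times in Smad4 −/−, a sign of RNA quality; for beta-actin the values were 1.16 and 1.27. The part of these differences in the results below was not tested.

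Most splicing genes differed by less than 1.5-fold between the arrays, as did most of all measured genes. Of the 108 measured, 5 passed 2-fold (4.63%), 2 toward Smad4 −/− and 3 toward Smad4 f/f. Over all 11089 measured genes that share was 7.00%, with 3.42% higher in Smad4 −/− and 3.58% lower. The 2 higher genes were Clk1, a kinase of SR proteins, and Mbnl3, a muscleblind splicing regulator. The 3 lower ones were Rbm45, an RNA-binding protein, and Snrnp40 and Snrnp27, proteins of the U5 particle and of the tri-snRNP. The median log2 ratio of the splicing genes was −0.09, with quartiles of −0.29 and 0.25, beside −0.02, −0.35 and 0.31 over all measured genes. With each array centred on its median, which moves the median of all measured genes to 0.06, the splicing genes split 3 higher and 2 lower and their median was −0.0001; over all genes 479 were then higher and 315 lower, against 379 and 397 as deposited. With a loess correction whose trend was fitted only on measured probe sets, 592 of all genes were higher and 149 lower, and 2 splicing genes were higher and 1 lower. At a limit of 1.5-fold, 8 splicing genes were higher and 10 lower, beside 11.8% and 13.3% of all genes.

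**Figure D1:**
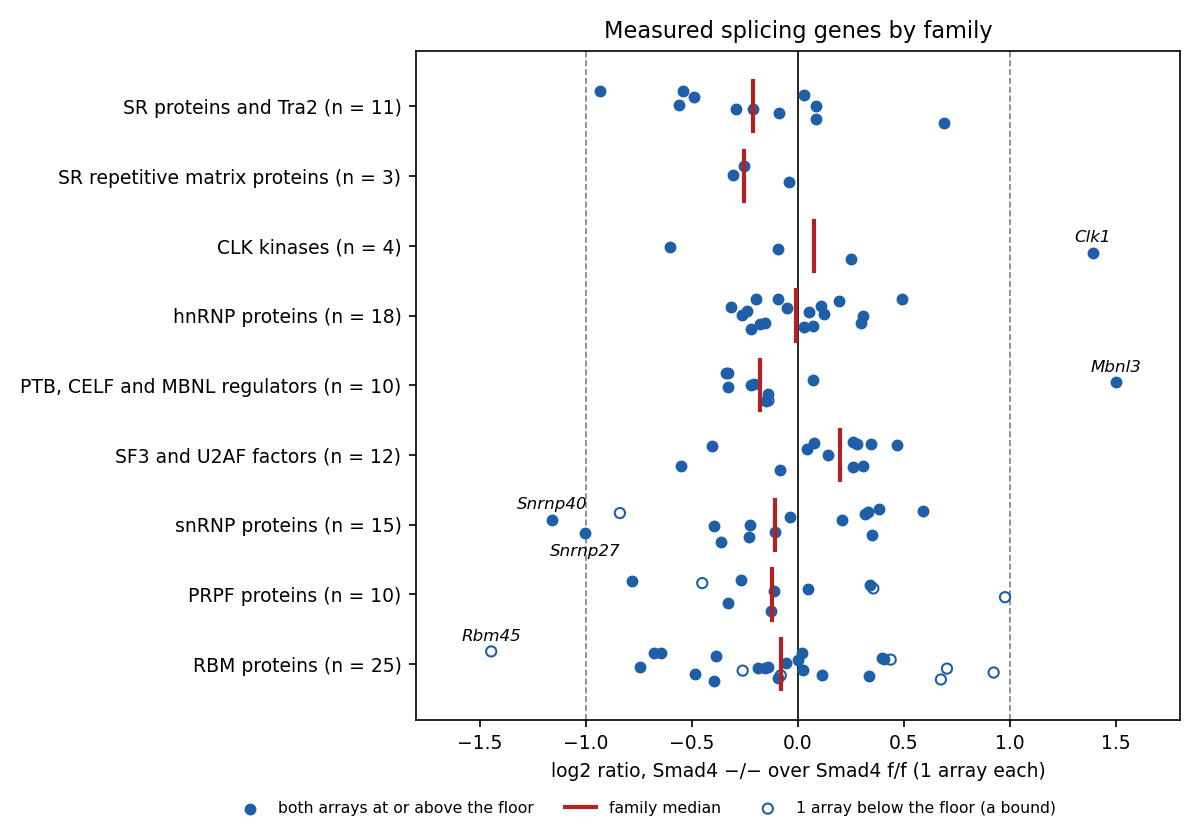
Log2 ratio of Smad4 −/− over Smad4 f/f for the 108 measured splicing genes, 1 point per gene, in 9 families; red lines are family medians, open points have 1 array below the floor, and dashed lines mark 2-fold. Clk1 and Mbnl3 lie to the right of the dashed lines and Rbm45, Snrnp40 and Snrnp27 at or beyond them on the left, while the SF3 and U2AF factors have a median of 0.20 and the SR proteins a median of −0.21.

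Of the 5 genes past 2-fold, 4 had dim signals. Among the 40 splicing genes with a mean log2 signal under 9, 4 passed 2-fold (10%), beside 8.03% of all genes that dim. Between 9 and 11 it was 1 of 41, Mbnl3 (2.44% beside 5.71%), and at 11 or more 0 of 27, where 4.31% of all 1785 genes passed. The SD of the log2 ratio over the splicing genes in these 3 ranges was 0.60, 0.39 and 0.29, beside 0.58, 0.52 and 0.45 over all genes. At strong signals the splicing genes thus had the narrower spread, a difference that has no test here.

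**Figure D2:**
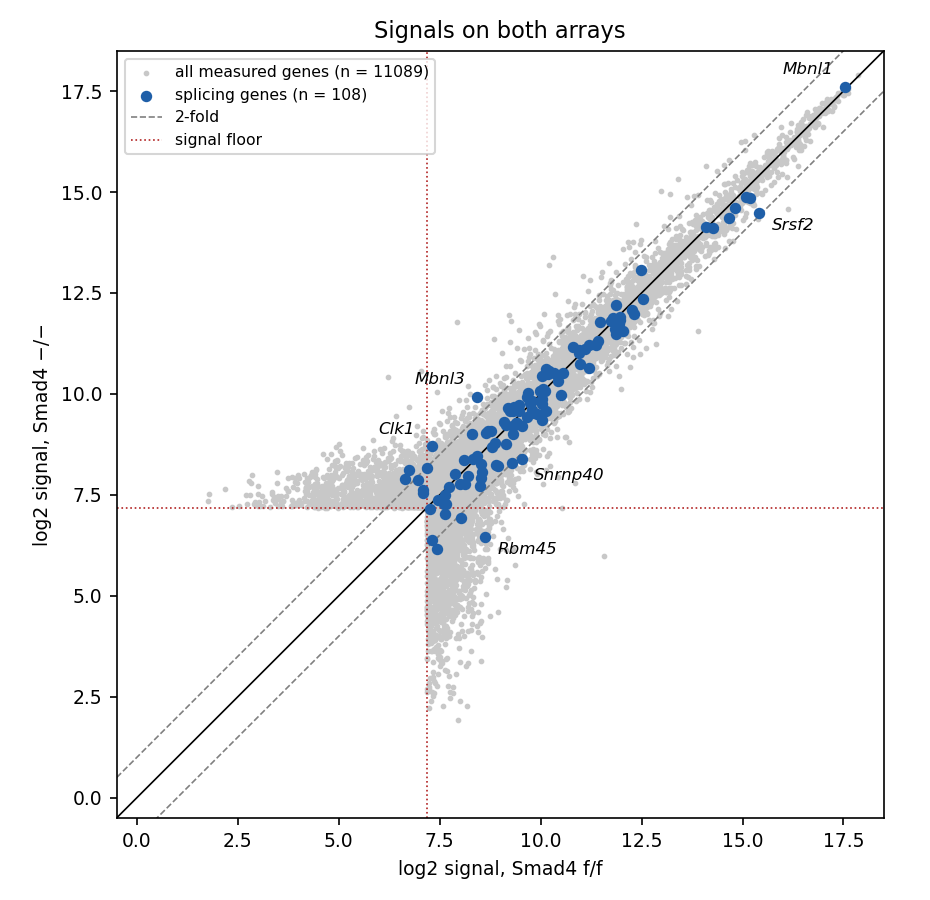
Log2 signal in Smad4 f/f (x axis) against Smad4 −/− (y axis) for all 11089 measured genes in grey and the 108 splicing genes in blue; dashed lines mark 2-fold and dotted lines the floor at 7.18. Blue points follow the diagonal, Clk1, Mbnl3, Rbm45 and Snrnp40 stand off it at low signal, and Srsf2 lies just inside the lower 2-fold line at a log2 signal near 15.

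SR proteins bind exonic enhancers and recruit the U1 particle and U2AF. Of 11 measured members of this family with Tra2, 7 were lower and 4 higher in Smad4 −/−, 0 passed 2-fold, and the median log2 ratio was −0.21; it stayed below 0 under each alternative scaling, floor and probe set choice, between −0.27 and −0.09. Of all measured genes, 51.7% were lower. Srsf2, a core SR protein of nuclear speckles, read 43520.3 in Smad4 f/f against 22818.9 in Smad4 −/− (log2 ratio −0.93). Its second strongest probe set read 19602 and 9609, which is 2.04-fold lower, and the third 1226 and 709. The fourth read 559 and 558, a log2 ratio of −0.001. The first 3 of these probe sets have the suffix _s_at, which marks probe sets that can match more than 1 transcript, and the fourth does not, so the low value of Srsf2 rests on the former. Tra2b, a sequence-specific enhancer binder, read 4219 against 3009 (log2 ratio −0.49), and its 3 measured probe sets were all lower. Srsf6 was lower in 4 of 4 probe sets, between −0.46 and −0.19, with 3904 against 3373 for the strongest. Other low members were Srsf9 (1120 against 759) and Srsf10, a splicing repressor of the heat shock response (2344 against 1609.5). Of the 4 probe sets of Srsf10, 1 was higher. On the higher side stood Tra2a with 317 against 512, a log2 ratio of 0.69 from 1 measured probe set, although its relative Tra2b was lower. Srsf11 was higher in 3 of 3 measured probe sets, with log2 ratios of 0.08 and 0.46 and, from 40.8, below the floor, to 166, at least 0.19. Srsf1, the founding SR protein, read 1963 against 2080 and its 7 measured probe sets ran from −0.51 to 0.34.

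All 3 measured SRRM genes, which encode large scaffold proteins rich in arginine and serine, were lower by little, with log2 ratios of −0.31 for Srrm1, −0.26 for Srrm3 and −0.04 for Srrm2. Median centring turns 1 of these signs. Srrm1 and Srrm2 each had 1 weaker probe set on the higher side, from below the floor in Smad4 f/f (at least 0.19 and 0.03). Srrm2 read 1500 in Smad4 f/f against 1458 in Smad4 −/−.

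The CLK kinases phosphorylate the RS domains of SR proteins and release them from speckles. Clk1 read 159 in Smad4 f/f against 417 in Smad4 −/− and was thus 2.62-fold higher. Its relatives stayed within 2-fold. Clk2 read 366 against 241 (log2 ratio −0.60), Clk3 637 against 758 (0.25) and Clk4 442 against 413 (−0.10). Clk1 has 1 probe set on the array and the Smad4 f/f signal lay just above the floor of 145, so with the floor at the 75th percentile its log2 ratio was at least 0.68, and with the loess trend of measured probe sets 0.81, both short of 2-fold.

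The hnRNPs coat nascent RNA and often silence splice sites. Their 18 measured genes split evenly, 9 higher and 9 lower, with 0 past 2-fold, a median of −0.01 and quartiles of −0.19 and 0.12. The lowest was Hnrnpab with 26032 in Smad4 f/f and 20914 in Smad4 −/− (log2 ratio −0.32), but the mean of its 5 measured probe sets was 0.19. The highest was Hnrnpl, which binds CA repeats, with 1121 against 1574 (0.49). Hnrnpc, a binder of uridine tracts, read 19623 against 17632 (−0.15). Hnrnpa2b1 was lower in 4 of 4 probe sets, between −0.25 and −0.07, and Hnrnpr in 3 of 3, between −0.39 and −0.05. Hnrnpa1 is not among the 18 because its chosen probe set did not reach the floor (96.9 and 129); of its 2 measured probe sets, 1 read 198 against 50.1, below the floor, at least 1.36-fold lower, and the other 1503 against 1019 (−0.56).

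The tissue-specific regulators held Mbnl3, the highest ratio of the splicing genes above the floor on both arrays, beside otherwise small and mostly negative values. Of 10 measured PTB, CELF and MBNL genes, 8 were lower (80.0%, beside 51.7% of all measured genes) and 2 higher. Their median of −0.18 stayed between −0.21 and −0.12 under each alternative scaling, floor and probe set choice. Mbnl3 read 345 in Smad4 f/f against 975 in Smad4 −/− and was thus 2.82-fold higher. The second probe set read 320 and 448 (log2 ratio 0.49). The third read 108, below the floor, and 155 (at least 0.10), so the mean of the 3 was 0.69, short of 2-fold. The other muscleblind genes did not share this. Mbnl1, an exon switch factor that expanded CUG repeats sequester in myotonic dystrophy, read 190170 against 199661 (0.07), and its weaker probe set 2389 against 3844 (0.69). Mbnl2 was lower in 4 of 4 probe sets, with 37171 against 29548 for the strongest (−0.33).

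Among the PTB proteins, which bind pyrimidine tracts, Ptbp3 was lower in 3 of 3 probe sets. They read 34912 against 29920, 11494 against 8482 and 4423 against 3351, log2 ratios of −0.22, −0.44 and −0.40. The strongest probe set of Ptbp2, the form best known from neurons, read 5098 against 4025 (−0.34), the lowest ratio of the family except that Celf5 (160 against 82.9, below the floor) has only a bound. Its weaker probe set went the other way, from 127, below the floor, to 391.5, at least 2.70-fold higher. Celf2, which binds GU-rich sequence, was lower in 3 of 3 measured probe sets, with 28884 against 25064 (−0.20), 22595 against 14614.5 (−0.63) and 11063 against 9907 (−0.16).

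**Figure D3:**
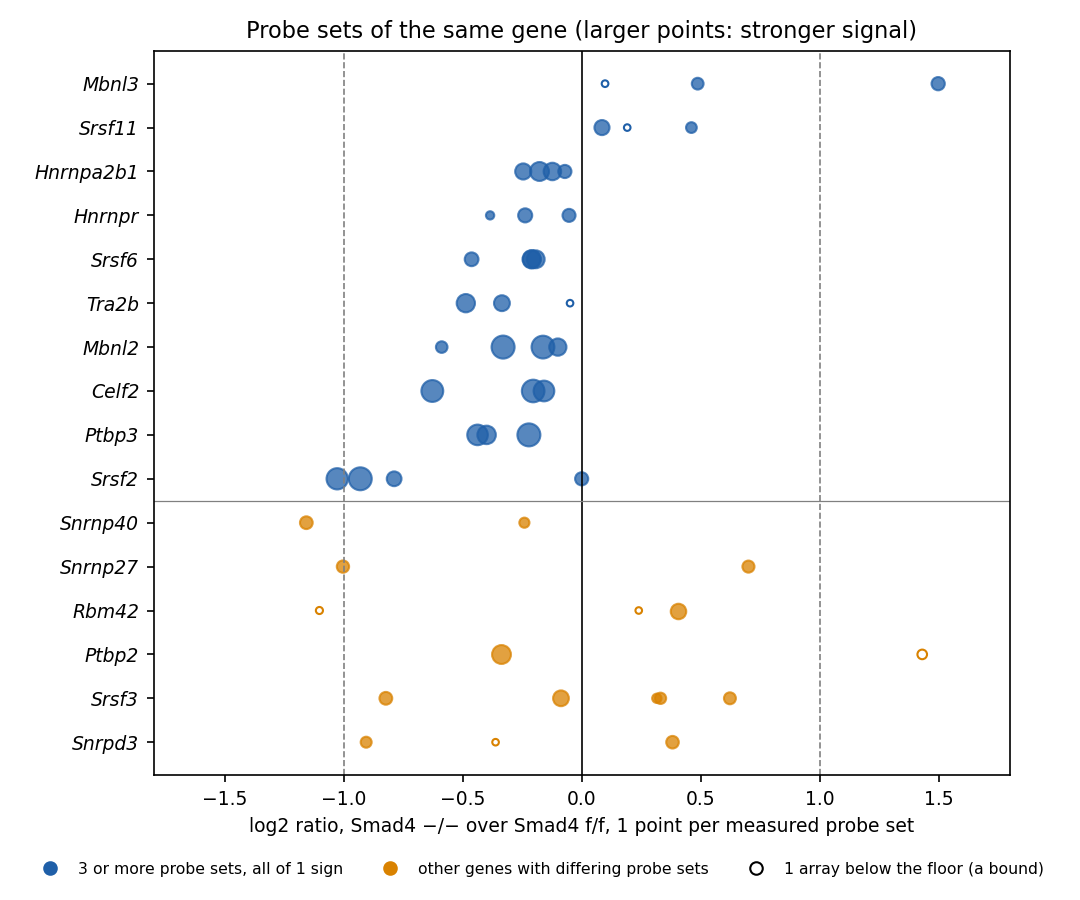
Log2 ratio of Smad4 −/− over Smad4 f/f for each measured probe set of 16 splicing genes; point size grows with mean signal, open points have 1 array below the floor, and dashed lines mark 2-fold. The 10 genes above the line have 3 or more probe sets of 1 sign, 8 of them all lower, while of the other 6 those of Snrnp27, Rbm42, Ptbp2, Srsf3 and Snrpd3 fall on both sides of 0 and those of Snrnp40 do not.

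The SF3 and U2AF factors of 3′ splice site recognition were mostly higher. Of the 12 SF3 and U2AF genes, all measured, 9 were higher and 3 lower, beside 48.3% of all genes higher, and 0 passed 2-fold. The median log2 ratio was 0.20, between 0.14 and 0.29 under each alternative scaling, floor and probe set choice, with 9 or 10 of the 12 above 0 each time. Sf3b1, the scaffold that holds the branch point helix, read 1800 in Smad4 f/f against 2283 in Smad4 −/− (0.34), and Sf3b6 read 2855 against 3531 (0.31). Each of them has 4 measured probe sets on both sides of 0, and the means were 0.12 and 0.15. Sf3b3 had the highest ratio of the family with 580.3 against 803 (0.47). U2af2, which binds the pyrimidine tract, read 711 against 850 (0.26), and its partner U2af1 468 against 442 (−0.08). Sf3b4 went against the family with 1464 against 998 (−0.55), and its second probe set was lower too, at −0.37. Probe sets of 1 splicing gene differed by a pooled SD of 0.39 in log2 ratio, and by 0.25 at a mean log2 signal of 9 or more.

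The snRNP proteins went both ways, 6 higher and 9 lower of 15 measured, with a median of −0.11 that turned to 0.02 without probe sets of the suffixes _s_at and _x_at and to 0.05 with the floor at the 75th percentile. Snrnp40, a WD-repeat protein of the U5 particle, read 742 in Smad4 f/f against 332 in Smad4 −/− (2.23-fold lower), while its second probe set read 273 and 231 (log2 ratio −0.24). Snrnp27 read 624 against 311, 2.01-fold lower, but its second probe set read 322 against 523 and was higher (0.70), so the mean of both was −0.15. Other tri-snRNP proteins went both ways: Snrnp200, the helicase that unwinds U4 from U6, read 828.5 against 1041 (0.33), whereas Prpf6, which bridges the particles, read 195 against 155 (−0.33, with a weaker probe set higher) and Sart1 427 against 296 (−0.53). In the U1 particle, Snrnp70 read 260 against 121, below the floor, at least 1.79-fold lower, while its second measured probe set read 114, below the floor, against 158 and was at least 0.13 higher on the log2 scale. Snrpc was higher in both probe sets, with 609 against 759 (0.32) for the stronger. Among the Sm proteins that ring the snRNAs, Snrpg was higher in 2 of 2 probe sets with 5701 against 8585 for the stronger (0.59). Of the other ring proteins Snrpe (3644 against 3109, −0.23) and Snrpf (293 against 251, −0.23) were lower, Snrpb was higher (1184 against 1507, 0.35), and the probe sets of Snrpd3 were split, with 417 against 543 (0.38) and 422 against 225 (−0.91). Of the proteins of the minor spliceosome, which removes a rare class of introns, Snrnp25 read 3742 against 2846 (−0.39), Snrnp35 280 against 217 (−0.36) and Snrnp48 212 against 207 (−0.04). Among its proteins outside the snRNP family, Rnpc3 read 540.3 against 381 (−0.51) and Zcrb1 was higher with 362 against 486 (0.43), while Pdcd7 and Zmat5 were not measured.

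PRPF proteins carry the catalytic steps and the tri-snRNP. Of 10 measured, 4 were higher and 6 lower, 0 passed 2-fold, and the median was −0.12. Prpf8, the protein at the heart of the spliceosome, read 651 in Smad4 f/f against 824 in Smad4 −/− (0.34). Prpf4, of the U4 and U6 particle, was lower in both probe sets with 361 against 210 (−0.78) and, for the second, 218 against 125, below the floor (log2 ratio −0.59 as a bound). Prpf18, which acts in the second step, read 145, just below the floor, against 286 and was at least 1.97-fold higher, and it passed 2-fold under median centring, quantile normalisation and the loess correction fitted on all probe sets, but gave 0.27 on the log2 scale with the loess trend of measured probe sets. Prpf38b read 884 against 735 (−0.27).

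The RBM proteins share little beyond an RNA recognition motif. Of 32 on the array 25 were measured, 11 higher and 14 lower, with a median of −0.08 that turned to 0.01 under median centring and to 0.002 with the mean of probe sets. Rbm45 read 396 in Smad4 f/f against 87.4 in Smad4 −/−, below the floor, at least 2.72-fold lower by its only probe set. With the floor at the 75th percentile that bound was −0.60 on the log2 scale, and with the loess trend of measured probe sets −0.69. Rbm27 had the highest bound, from 106, below the floor, to 275, at least 1.90-fold. The strongest, Rbm18 (3748 against 4733, 0.34) and Rbm7 of the nuclear exosome targeting complex (4010 against 3863, −0.05), differed by little in these probe sets, but the second of Rbm18 read 226 against 146 (−0.64). Rbm42 shows how far probe sets of 1 gene can part: the strongest read 1046 against 1384 (0.40), and another 312 against 61.4, below the floor, at least 2.15-fold lower.

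Agreement between probe sets bears on how far these single ratios can be read. Of the 111 splicing genes with any measured probe set, 45 had 1 and 66 had 2 or more. Among the 66, 29 (43.9%) had probe sets of 1 sign, beside 47.6% of all such genes, and 37 had both signs. Within a gene, log2 ratios had a pooled SD of 0.39 for splicing genes and 0.48 for all genes. With probe sets of mean log2 signal 11 or more it was 0.20 over 11 splicing genes and 0.23 over all. Where 3 or more probe sets were measured, 8 of 35 splicing genes were lower in all of them (22.9% beside 16.3%) and 2 were higher in all (5.71% beside 14.5%). The 8 were Srsf2, Ptbp3, Celf2, Mbnl2, Tra2b, Srsf6, Hnrnpr and Hnrnpa2b1, with mean log2 ratios from −0.69 to −0.15, and the 2 were Srsf11 (0.25) and Mbnl3 (0.69). This spread holds no spread between mice or replicate arrays, and its cause was not tested. Over single probe sets, 8 of 241 passed 2-fold (3.32% beside 6.85%): 1 each of Clk1, Mbnl3 and Ptbp2 on the higher side, and of Rbm45, Snrnp40, Snrnp27, Srsf2 and Rbm42 on the lower.

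The rest of the splicing pathway, taken from 4 lists of genes outside these families, stood much the same. With 116 of 135 measured, the median was 0.002. Past 2-fold were 4 genes upward in Smad4 −/− and 1 downward (4.31%, beside 7.00% of all measured genes). All 5 were among the 57 further spliceosome components. Ppil1, a prolyl isomerase, read 131, below the floor, against 1512 and was at least 10.4-fold higher. Bcas2, of the complex that stabilises the active site, read 117, below the floor, against 354, at least 2.44-fold higher. Ctnnbl1, which binds the same complex, read 178 against 400 (2.24-fold), and Ddx42, a helicase that binds SF3 proteins, 169 against 351 (2.08-fold). Each of these 4 has 1 measured probe set. Aqr, the intron-binding helicase, read 770 against 375, 2.06-fold lower, but its other measured probe set gave 1.07 on the log2 scale and the mean was 0.01.

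Of the ring proteins of U6, Lsm3 read 17152 in Smad4 f/f against 10921 in Smad4 −/− (−0.65, from 1 probe set) and Lsm6 6924 against 9321 (0.43). Lsm7 (0.52) and Lsm4 (0.15) were higher too, Lsm8 was nearly level (−0.05) and Lsm2 was not measured. None of the 7 exon junction genes, 8 SMN complex genes and 44 further regulators passed 2-fold. The strongest of these lists were Alyref, an mRNA export adaptor (−0.04), and Ncbp2 of the cap-binding complex (−0.29), Gemin7 (0.43) and Clns1a (−0.09) of snRNP assembly, and Ybx1, a packaging protein of mRNA (−0.04), and Pcbp2 (0.50). Among the 44 regulators, Qk was lower in 6 of 6 measured probe sets, with 11024 against 6698 for the strongest (−0.72) and a lowest ratio of −1.18. Scaf8 was lower in 3 of 3, between −1.02 and −0.53, while Syncrip and Tardbp were each higher in 3 of 3.

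**Figure D4:**
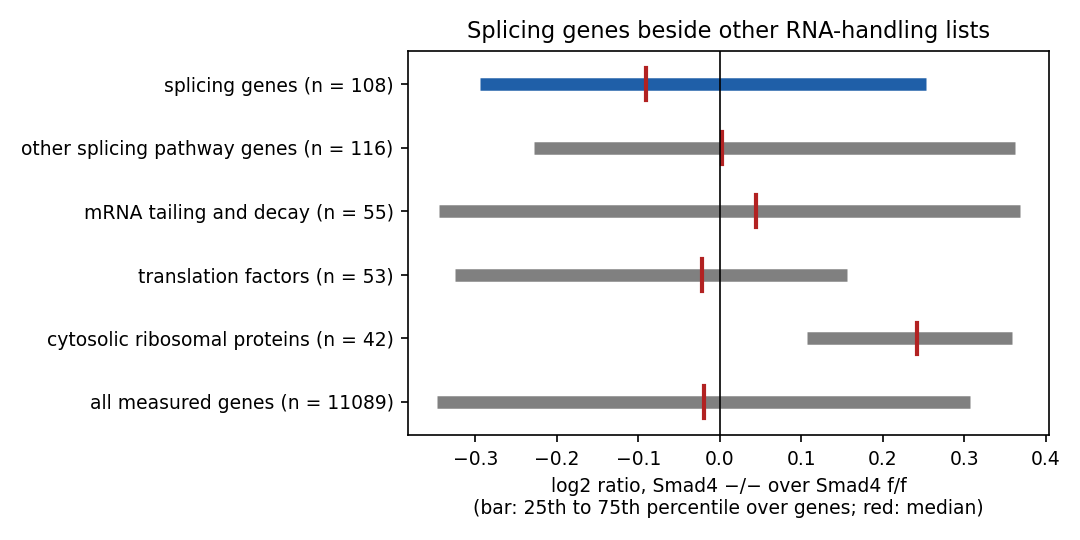
Median (red) and 25th to 75th percentile (bar) of the log2 ratio of Smad4 −/− over Smad4 f/f for splicing genes and 5 other sets of measured genes. The bar of the splicing genes, with a median of −0.09, overlaps all other bars. The bar of the cytosolic ribosomal proteins lies wholly above 0 with a median of 0.24, although 7 of these 42 genes were lower.

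Other RNA-handling lists give a scale for these shifts. The 55 measured genes of mRNA tailing and decay had a median of 0.04 with 2 past 2-fold (3.64%), and 53 translation factors had a median of −0.02 with 4 past 2-fold (7.55%). Of all measured genes, 7.00% passed 2-fold. The 42 cytosolic ribosomal proteins had a median of 0.24, 35 of them higher (83.3%, beside 48.3% of all measured genes) and 0 past 2-fold. The distance between the splicing median of −0.09 and the ribosomal one cannot be tested with 1 array per genotype.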

How the data were processed

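Platelet RNA was labelled by a kit that primes at the 3′ end and read on Affymetrix Mouse Genome arrays, per the labels. What the authors deposited is a log2 signal for each probe set on each array. The submitters' processing notes name MAS5 without a version. The scaling was read from the values, since the trimmed mean of the linear signals (2% off either end) is 500.01 for each genotype. Of 45101 probe sets, 64 are controls and 34945 others have 1 gene symbol in the platform annotation, which can be old. All 347 splicing probe sets matched a RefSeq gene table of GRCm38.p6 by Entrez ID, with 0 symbols changed. A further 27 probe sets that list a splicing symbol with other symbols were left out.

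Signals were raised to the higher of the arrays' 60th percentiles over probe sets that are not controls (log2 7.18). A gene took its probe set of highest mean log2 signal, with the suffix _x_at used only in want of another, and counted as measured if that probe set reached the floor on at least 1 array. No test was run. Alternatives were median centring, quantile normalisation, a loess correction with span 0.3, floors at the 50th and 75th percentiles or none, the mean of measured probe sets, leaving out _s_at and _x_at, limits of 1.5-fold and 3-fold, and requiring probe sets to agree. A median moved if it changed by 0.1 or more, a count if by over 1.5 times. The loess trend was first fitted on measured probe sets and, after its result was seen, on all that are not controls, because a filter on the higher array selects on the ratio at the dim end; both are given, the first as an alternative added after seeing the data. The steps were tested on simulated data. Python 3.11.15, pandas 2.3.3 and statsmodels 0.14.6 were used.

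Named were genes past 2-fold, the 2 strongest and the highest and lowest ratio of each family, genes with 3 or more probe sets of 1 sign, the CLK kinases, and in other lists those past 2-fold and the 2 strongest. Other splicing genes, other genes of the pathway lists and Srsf2's single probe sets were chosen after their values were seen. The members, lists and settings were chosen with earlier results of these data known.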

Additional observations from a re-analysis of the deposited data

How the results depend on the processing

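On the deposited scale 2 splicing genes passed 2-fold upward in Smad4 −/− and 3 downward, as did 4 and 1 of the other pathway genes. With the floor at the 50th percentile, where 10.9% of all measured genes passed 2-fold, 4 splicing genes were higher and 4 other pathway genes lower. At the 75th percentile (4.40% of all), 1 splicing gene and 1 other pathway gene were higher. With no floor (21.9% of all), 4 splicing genes were higher and 5 lower, and 6 other pathway genes were lower. With the mean of probe sets (5.14% of all), 1 splicing gene was higher and 1 lower, and 0 other pathway genes were lower, as also under median centring and when probe sets had to agree. At 1.5-fold (25.1% of all) the splicing counts were 8 and 10 and the others 12 and 9; at 3-fold (0.929% of all) they were 0 and 0, and 1 and 0. With the loess trend fitted on measured probe sets, an alternative added after seeing the data (7.82% of all past 2-fold), 1 splicing gene was lower and the median of the other pathway genes was 0.11, against 0.002. Under the other alternatives both medians changed by less than 0.1. Of 465 values of named genes under the alternatives, 434 moved by less than the spread between probe sets and lost no call (Prpf18 passed 2-fold in 3 of them and Rbm27 in 2), 18 past 2-fold fell short of it, 12 others moved by more than that spread, and 1 past 2-fold changed sign: Aqr, at 0.013 with the mean of probe sets. A further 11 values under 2-fold changed sign, 6 of them by median centring (Smad4 and Srrm2 among them); with the mean of probe sets Ptbp2 turned to 0.54, Hnrnpab to 0.19, Rbm18 to −0.15 and Hnrnpc to 0.02, and without _s_at and _x_at Ncbp2 to 0.19. The cause was not tested. Srsf2 moved to −0.001 without probe sets ending in _s_at or _x_at. No paired analysis was possible because each genotype has 1 array. Signal limits the dim genes: 12 of the 108 measured splicing genes had 1 side below the floor.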
